A study of Mus musculus with 30 samples.

Results

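The endothelin ligands, receptors and converting enzyme were followed across 30 total RNA libraries of mouse cardiac myocytes. The 5 genes Edn1, Edn3, Ednra, Ednrb and Ece1 were taken by symbol from a table of 52550 genes, and all 5 passed the filter on low counts that left 15587 genes for testing. Edn3 was chosen by its level in exercised heterozygotes, and the other 4 were added as its family, so Edn3 is described without a test wherever exercised heterozygotes enter. There were 5 libraries in each of 6 groups. Heterozygotes had the genotype Myh6-Cre:DspW/F, in which Cre recombinase is driven in cardiac myocytes and the study's title names haplo-insufficiency for desmoplakin, a desmosomal linker protein. They were set against mice labelled Wildtype in 3 states, which were an age of 3 months, an age of 6 months without a training program (regular activity), and an age of 6 months following endurance exercise on a treadmill for 3 months. Whether wild-type mice carried Cre is not in the labels, so effects of Cre and of the Dsp allele cannot be told apart, nor do the labels say whether the 5 replicates are separate animals, so the p-values measure the spread between these libraries.

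Endothelins are short secreted peptides, cut from a longer precursor first by furin-type proteases and then by endothelin-converting enzyme. Endothelin-1 is made mainly by endothelial cells and constricts vessels, while endothelin-3 is best known for acting through the B receptor in neural crest development. Both receptors couple to heterotrimeric G proteins and phospholipase C. The A receptor is known from smooth muscle and cardiac myocytes, and the B receptor from endothelial cells, where it also clears the peptide.

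Total counts ranged between 11.23 and 23.71 in units of 10⁶ per library. Transcripts of the mitochondrial genome took between 22.01% and 38.13% of counts in exercised heterozygotes and between 11.68% and 26.67% in heterozygotes with regular activity. In exercised wild type they took between 20.85% and 46.92%, against 13.34% to 17.64% in wild type with regular activity. Dsp, the targeted gene, averaged 765 ± 213 CPM in heterozygotes and 1080 ± 295 CPM in wild type at 3 months, and 626 ± 41.1 against 784 ± 173 CPM at 6 months with regular activity. Those differences did not pass edgeR's quasi-likelihood test, with adjusted p of 0.312 and 0.657. In exercised mice Dsp averaged 848 ± 90.5 CPM in heterozygotes and 1560 ± 428 CPM in wild type, a genotype difference with an adjusted p of 0.0287 by edgeR. That adjusted p was 0.115 when only the libraries of both exercised groups were fitted and 0.0906 without the filter on low counts. With 1 library left out it was up to 0.109, so the call was not kept in all fits. The defining myocyte markers were abundant in every group, with summed means between 71600 and 94400 CPM over 10 genes. All 15 endothelial, 10 fibroblast and 8 macrophage markers also had reads, and none of the listed markers was at 0 in all libraries. Xist, the transcript of the inactive X chromosome, had at least 1000 counts in 12 libraries and at most 18 in the others. Those 12 were 3 of 5 in each genotype at 3 months, 2 of 5 in each at 6 months with regular activity and 1 of 5 in each exercised group, so their number was equal between genotypes and lower with age and exercise. Among the 12, 3 wild-type libraries (replicate 4 at 3 months, replicates 2 and 5 at 6 months) held 45 to 84 counts over 4 Y-linked genes, against at most 7 in the other 9. An Xist covariate, chosen after seeing the data, changed no count of endothelin genes that passed the test. Leaving out those 3 was refitted only for comparisons with wild type at 3 months or at 6 months with regular activity. No endothelin gene passed in those comparisons, with or without the 3 libraries. Exercise and age within heterozygotes were not refitted this way.

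On GRCm38, by the GENCODE annotation, Edn1 lies at chr13:42301476-42307990 and Edn3 at chr2:174760619-174784042, both on the + strand. Ednra lies at chr8:77663031-77724464 and Ednrb at chr14:103814625-103844402, both on the - strand, and Ece1 at chr4:137862237-137965229 on the + strand. The stretches upstream of Edn3 and Ednra, the 2 endothelin genes whose mean was highest in exercised heterozygotes of all 6 groups, are shown with that of the other ligand, Edn1. Each is the 250 bases before the RefSeq transcript start, written 5′ to 3′ on the gene's own strand, on GRCm38.p6. For Ednra that start lies inside the GENCODE span given above, so the last bases of its window (from 77724453) fall within that span (to 77724464). Capitals mark a CCAAT motif.
Edn3, chr2:174760369-174760618, + strand: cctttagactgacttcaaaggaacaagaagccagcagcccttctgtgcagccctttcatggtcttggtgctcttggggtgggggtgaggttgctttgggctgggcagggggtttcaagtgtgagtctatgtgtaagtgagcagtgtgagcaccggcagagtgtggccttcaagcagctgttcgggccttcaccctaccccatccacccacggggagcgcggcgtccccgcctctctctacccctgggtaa
Ednra, chr8:77724453-77724702, - strand: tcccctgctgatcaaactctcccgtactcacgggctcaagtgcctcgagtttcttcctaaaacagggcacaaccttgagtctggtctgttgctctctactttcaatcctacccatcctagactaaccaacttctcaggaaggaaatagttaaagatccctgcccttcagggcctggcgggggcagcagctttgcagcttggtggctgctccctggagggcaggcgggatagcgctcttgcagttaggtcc
Edn1, chr13:42301226-42301475, + strand: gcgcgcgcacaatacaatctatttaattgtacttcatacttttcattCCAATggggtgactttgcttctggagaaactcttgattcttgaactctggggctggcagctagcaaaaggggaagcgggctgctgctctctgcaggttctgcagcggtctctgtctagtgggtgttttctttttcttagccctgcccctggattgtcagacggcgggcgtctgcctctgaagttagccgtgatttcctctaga
The Edn3, Ednra and Edn1 stretches held 59.2%, 54.8% and 50.4% G and C. Both strands were searched for TATAAA, for the AP-1 site TGACTCA, for the GATA site AGATAA, for the E-box CACGTG, and for CCAAT. The one match was CCAAT in Edn1, at -203 to -199 from the start. Of 32851 annotated promoter windows of that length, 33.8% held CCAAT, 12.4% TATAAA, 9.99% the GATA site, 6.02% the E-box and 4.46% an AP-1 site.

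Levels between genes were compared as CPM per kilobase of exon, where CPM is counts per 10⁶ on TMM-scaled library sizes. Over the 30 libraries Ednra averaged 10.1 ± 3.21 (SD) CPM per kilobase, and Ece1, the converting enzyme, averaged 9.15 ± 2.73. Ednrb averaged 2.29 ± 1.55, Edn1 1.64 ± 0.783 and Edn3 1.08 ± 1.13 CPM per kilobase. The A receptor and the enzyme were thus well above the B receptor and both ligands. Ece1 was above Ednrb in 30 of 30 libraries, whereas Ednra was above Ece1 in only 15, Ednrb above Edn1 in 20 and Edn1 above Edn3 in 22. With the longest transcript as length, the order of the means was unchanged and Ednra was above Ece1 in 26 of 30 libraries. The ligands rested on few reads, between 10 and 146 counts per library for Edn1 and between 14 and 443 for Edn3, against 403 to 1600 for Ednra. Edn2, the remaining endothelin ligand gene, had 10 counts over the 30 libraries, with 0 in 25 of them, and was not tested.

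**Figure D1:**
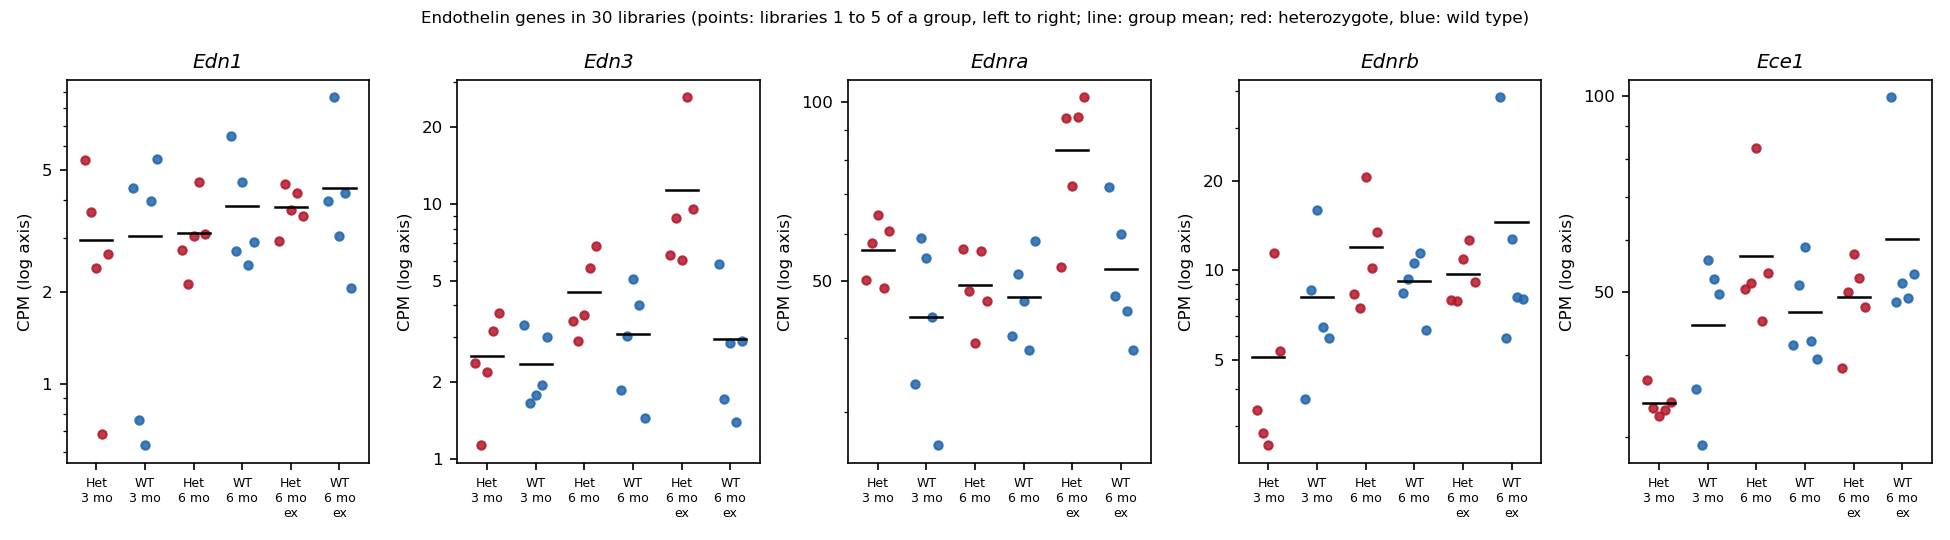
Levels of the 5 endothelin genes in CPM on log axes, with 1 point per library (red for heterozygotes, blue for wild type) and the group mean as a line, in 6 groups of 5 libraries. All 5 exercised heterozygotes lie above every exercised wild-type library for Edn3, and 4 of them lie above every heterozygote with regular activity for Ednra.

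Among the ligands, Edn3 was highest in exercised heterozygotes. Its 5 libraries there had 6.28, 8.85, 6.01, 26.2 and 9.53 CPM (75, 128, 86, 443 and 129 counts), against 5.83, 1.72, 2.86, 1.39 and 2.9 CPM in exercised wild type (84, 29, 45, 26 and 38 counts). Every exercised heterozygote lay above every exercised wild-type library, by a narrow margin between 6.01 and 5.83 CPM. The group means were 11.4 ± 8.43 CPM in exercised heterozygotes and 2.94 ± 1.75 CPM in exercised wild type (SD, n = 5 each). One library, replicate 4, stood far above the other 4 exercised heterozygotes, which averaged 7.67 ± 1.78 CPM. The log2 difference between the genotypes in exercised mice, 1.96 with all libraries, was 1.39 without that library, and it lay between 1.39 and 2.35 when any 1 of the 10 libraries was left out.

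Edn3 averaged lower in every other group, with libraries between 1.13 and 6.83 CPM. In heterozygotes with regular activity at 6 months the 5 libraries had 3.47, 2.9, 3.66, 5.63 and 6.83 CPM, against 1.86, 3.03, 5.06, 4.02 and 1.45 CPM in wild type. The highest of these heterozygotes, at 6.83 CPM, lay within the exercised range, and the other 4 lay below it. The log2 difference of exercised over regular-activity heterozygotes was 1.34, and 0.77 without replicate 4. At 3 months Edn3 averaged 2.53 ± 0.997 CPM in heterozygotes and 2.35 ± 0.775 CPM in wild type (SD, n = 5 each).

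The comparisons that the choice of Edn3 did not use gave no call for it. The log2 difference of heterozygotes over wild type was 0.11 (SE 0.426, edgeR adjusted p = 0.95) at 3 months and 0.54 (SE 0.406, adjusted p = 0.765) at 6 months with regular activity. Exercise in wild type gave a log2 difference of -0.08 (SE 0.414, adjusted p = 0.947). Age gave 0.83 (SE 0.415, adjusted p = 0.266) in heterozygotes and 0.40 (SE 0.418, adjusted p = 0.753) in wild type. The groups overlapped in all 5 of these comparisons.

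Edn1, the gene of endothelin-1, passed the test in no comparison. In exercised heterozygotes its 5 libraries had 2.93, 4.49, 3.71, 4.2 and 3.55 CPM, against 3.96, 8.65, 3.05, 4.21 and 2.06 CPM in exercised wild type. Heterozygotes with regular activity at 6 months had 2.75, 2.12, 3.05, 4.56 and 3.09 CPM, against 6.49, 2.73, 4.59, 2.44 and 2.91 CPM in wild type. At 3 months the libraries ranged between 0.688 and 5.38 CPM in heterozygotes and between 0.63 and 5.44 CPM in wild type. All these ranges overlapped, the log2 differences of the 7 comparisons of 2 groups lay between -0.30 and 0.34, and the smallest adjusted p was 0.803 by edgeR. The SE of these log2 differences was 0.461 to 0.473. At a like SE of 0.470, the Ednrb log2 difference of 1.23 with age in heterozygotes did not pass (edgeR adjusted p = 0.138). Edn1 differences of about 1 log2 unit or less could therefore be missed here.

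Of the summed ligand level per kilobase, Edn3 made up 56.8% ± 11.9 in exercised heterozygotes and 28.5% ± 15.7 in exercised wild type (SD, n = 5 each). All 5 exercised heterozygotes, at 45.8% to 76.4%, lay above all 5 exercised wild-type libraries, at 9.36% to 43.4%. The share was 42.4% ± 6.27 in heterozygotes and 30.6% ± 13.4 in wild type at 6 months with regular activity, and 35.6% ± 22.5 against 36.7% ± 18.2 at 3 months. Because Edn3 was chosen for its level in exercised heterozygotes, this share is a description of the same pattern.

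Among the receptors, Ednra rose with exercise in heterozygotes. The 5 exercised heterozygotes had 52.7, 94.2, 72.2, 94.6 and 102.0 CPM, against 56.6, 48.1, 39.3, 56.1 and 46.2 CPM in heterozygotes with regular activity. Of the exercised libraries, 4 lay above every regular-activity library and replicate 1 lay within their range. The means were 83.1 ± 20.3 CPM and 49.2 ± 7.26 CPM (SD, n = 5 each), a 1.69-fold difference with a log2 value of 0.76 (SE 0.194) and an adjusted p of 0.0123 by edgeR. Here 1 of 4 endothelin genes, Edn3 left aside, passed the test, where 8.82% of all genes did. The adjusted p was 0.0504 without exercised heterozygote 2, 0.0598 without exercised heterozygote 5 and 0.0583 without the filter on low counts.

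Exercise in wild type gave no such call. Ednra had 72.0, 47.2, 60.0, 44.5 and 38.3 CPM in exercised wild type, against 40.4, 51.4, 46.3, 38.2 and 58.3 CPM in wild type with regular activity. The groups overlapped, with a log2 difference of 0.16 (SE 0.193, edgeR adjusted p = 0.715). The test of the difference between both exercise responses gave a log2 value of 0.60 (SE 0.273) with an unadjusted p of 0.0371 and an adjusted p of 0.989 by edgeR, so the responses of the genotypes were not shown to differ.

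Between the exercised genotypes Ednra averaged 83.1 ± 20.3 CPM in heterozygotes and 52.4 ± 13.5 CPM in wild type, a log2 difference of 0.67 (SE 0.194) that missed the threshold by edgeR (adjusted p = 0.133) and passed it by limma-voom (adjusted p = 0.0221). In that comparison 4 of 5 exercised heterozygotes lay above all exercised wild-type libraries. With regular activity the genotypes gave 49.2 ± 7.26 CPM in heterozygotes and 46.9 ± 8.2 CPM in wild type, with a log2 difference of 0.07 (SE 0.193, edgeR adjusted p = 0.964). At 3 months they gave 56.4 ± 6.86 against 43.4 ± 13.8 CPM, with a log2 difference of 0.38 (SE 0.194, edgeR adjusted p = 0.477).

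In these bulk libraries fewer cells of a type and less RNA per cell cannot be told apart. The summed pericyte and smooth muscle markers, cells that also carry the A receptor, ranged between 372 and 894 CPM in exercised heterozygotes and between 529 and 973 CPM in heterozygotes with regular activity. Summed fibroblast markers ranged between 197 and 1110 CPM in exercised heterozygotes, against 514 to 854 CPM with regular activity. The means of both lists were lower in exercised heterozygotes (573 against 757 CPM for pericytes and smooth muscle, 435 against 637 CPM for fibroblasts), while Ednra was higher. The part of these cells in the Ednra difference was not tested.

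The antisense gene 4933431K23Rik overlaps Ednra on the opposite strand and held 3675 counts over the 30 libraries, against 28595 for Ednra. It did not pass the test in any comparison, and its log2 difference with exercise in heterozygotes was 0.21 (edgeR adjusted p = 0.718). Whether counting used strand is not given in the sources used here, so reads of the pair may be shared.

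Ednrb, the B receptor, passed in no comparison. It had 7.95, 7.88, 10.9, 12.6 and 9.16 CPM in exercised heterozygotes, against 8.34, 7.47, 20.6, 10.2 and 13.4 CPM in heterozygotes with regular activity, with a log2 difference of -0.30 (SE 0.457, edgeR adjusted p = 0.776). Exercised wild type had 38.1, 5.92, 12.7, 8.1 and 8.02 CPM, against 8.4, 9.35, 10.6, 11.4 and 6.3 CPM in wild type with regular activity. One exercised wild-type library, replicate 1, set the direction of that comparison, since the log2 difference was 0.66 (SE 0.456, edgeR adjusted p = 0.44) with it and -0.09 without it. The same library turned the genotype difference in exercised mice, which was -0.58 with it (SE 0.458, edgeR adjusted p = 0.772) and 0.15 without it.

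With age in heterozygotes, Ednrb had 8.34, 7.47, 20.6, 10.2 and 13.4 CPM at 6 months and 3.38, 2.84, 2.58, 11.4 and 5.34 CPM at 3 months. Of the libraries at 3 months, replicate 4 lay inside the 6-month range and the other 4 lay below it. The log2 difference was 1.23 (SE 0.470), with an adjusted p of 0.138 by edgeR and 0.00966 by limma-voom. In wild type it was 0.18 (SE 0.459, edgeR adjusted p = 0.918). The test of the difference between the age responses gave a log2 value of 1.05 (SE 0.655, edgeR adjusted p = 0.709), so the genotypes were not shown to differ.

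**Figure D2:**
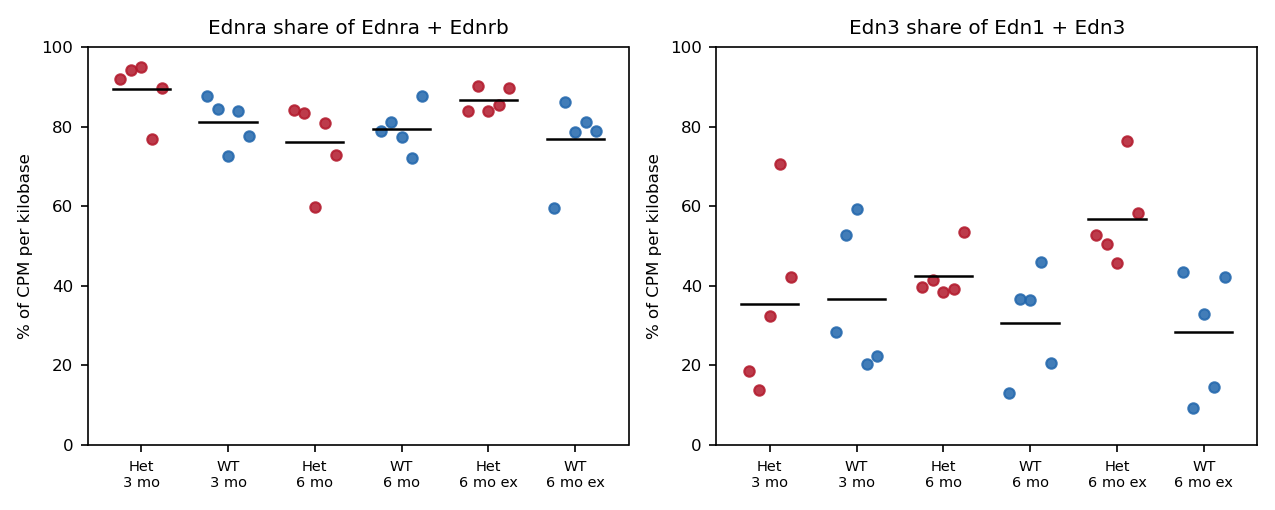
Share of Ednra in the summed receptor level and of Edn3 in the summed ligand level, each in percent of CPM per kilobase, with 1 point per library (red for heterozygotes, blue for wild type) and the group mean as a line. Exercised heterozygotes lie between 83.8% and 90.3% for Ednra and between 45.8% and 76.4% for Edn3.

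Ednra was the main receptor transcript in every group. It made up 86.6% ± 3.18 of the summed receptor level per kilobase in exercised heterozygotes and 76.8% ± 10.1 in exercised wild type (SD, n = 5 each). At 6 months with regular activity it made up 76.2% ± 10.2 in heterozygotes and 79.5% ± 5.7 in wild type, and at 3 months 89.6% ± 7.42 in heterozygotes and 81.3% ± 6.01 in wild type. The group ranges overlapped between the genotypes.

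Ece1 rose with age in heterozygotes. It had 50.6, 51.6, 83.1, 45.2 and 53.4 CPM at 6 months and 36.6, 33.2, 32.3, 33 and 33.9 CPM at 3 months, so that every library at 6 months lay above every library at 3 months. The means were 56.8 ± 15.0 CPM and 33.8 ± 1.64 CPM (SD, n = 5 each), a 1.68-fold difference with a log2 value of 0.75 (SE 0.189) and an adjusted p of 0.0254 by edgeR. This was 1 of 5 endothelin genes, where 3.43% of all genes passed. Without heterozygote 3 at 6 months, the highest library, the log2 difference was 0.57 and the adjusted p 0.124, while the remaining 4 libraries averaged 50.2 ± 3.53 CPM. Without heterozygote 3 or 4 at 3 months the adjusted p was 0.0569 or 0.057.

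In wild type Ece1 had 41.5, 51.3, 58.6, 42.1 and 39.4 CPM at 6 months, against 35.5, 29.1, 56.0, 52.4 and 49.7 CPM at 3 months. The age groups overlapped, with a log2 difference of 0.06 (SE 0.188, edgeR adjusted p = 0.929). The test of the difference between the age responses gave a log2 value of 0.68 (SE 0.267), with an unadjusted p of 0.0157 and an adjusted p of 0.553 by edgeR. The genotypes were therefore not shown to differ in their change with age. At 3 months Ece1 averaged 33.8 ± 1.64 CPM in heterozygotes and 44.5 ± 11.6 CPM in wild type, a log2 difference of -0.40 (SE 0.189, edgeR adjusted p = 0.433).

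Exercise gave no call for Ece1. Exercised heterozygotes averaged 49.1 ± 6.99 CPM against 56.8 ± 15.0 CPM with regular activity, with a log2 difference of -0.21 (SE 0.188, edgeR adjusted p = 0.585). Exercised wild type averaged 60.3 ± 22.0 CPM against 46.6 ± 8.1 CPM, with a log2 difference of 0.37 (SE 0.188, edgeR adjusted p = 0.239). The wild-type difference rested on replicate 1 at 99.4 CPM, without which it was 0.11.

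Summed endothelial markers moved with Ece1 and Ednrb. Over 15 genes they ranged between 608 and 1240 CPM in heterozygotes at 6 months with regular activity and between 399 and 452 CPM in heterozygotes at 3 months, without overlap. In wild type they ranged between 541 and 796 CPM at 6 months and between 427 and 938 CPM at 3 months. With age in heterozygotes all 15 were higher at 6 months, with a median log2 difference of 1.04 (against -0.02 for all genes). Of the 15, 3 passed the test by edgeR, 7 by DESeq2 and 12 by limma-voom. Of all 15587 genes, 3.43% passed by edgeR, 961 genes by DESeq2 and 1367 genes by limma-voom. Summed fibroblast markers in heterozygotes ranged between 514 and 854 CPM at 6 months and between 226 and 352 CPM at 3 months, and macrophage markers between 51.9 and 104 CPM against 13.2 to 28.4 CPM. The part of these cells in the Ece1 and Ednrb differences was not tested.

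**Figure D3:**
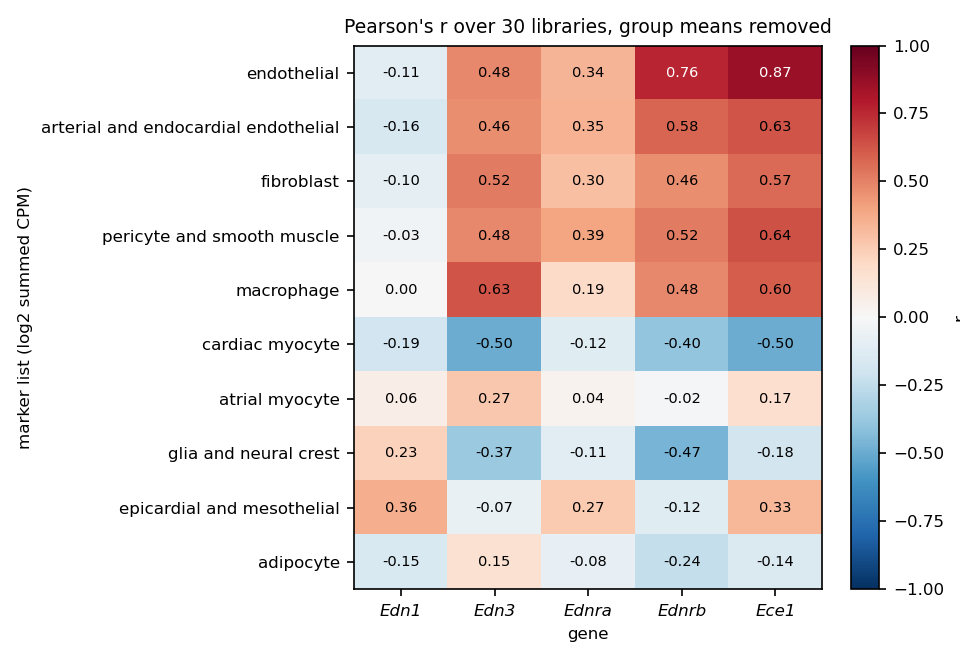
Pearson r of each endothelin gene with summed marker lists over 30 libraries, on log2 CPM with each group's mean removed. Ece1 and Ednrb have their largest r with endothelial markers, at 0.866 and 0.764, Edn3 with macrophage markers at 0.632, and Edn1 is at -0.111 with endothelial markers.

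Library by library within groups, Ece1 followed the endothelial markers with a Pearson r of 0.866 and Ednrb with 0.764 over 30 libraries, on log2 CPM with each group's mean removed. Ece1 and Ednrb followed each other at 0.602. Ednra had r of 0.393 with pericyte and smooth muscle markers and 0.338 with endothelial markers. Edn3 had 0.632 with macrophage, 0.516 with fibroblast and -0.496 with cardiac myocyte markers. With pericyte and smooth muscle, endothelial, and arterial and endocardial endothelial markers Edn3 had 0.484, 0.479 and 0.464. These Edn3 values include exercised heterozygote 4, the library with the most Edn3 and the highest summed macrophage markers, and are not given without it. Edn1 was at -0.111 with the endothelial list, and Edn3 and Ednra, both at their highest mean in exercised heterozygotes, were at 0.0751 with each other. Points of 1 library share their depth and their mix of cells, so these values are descriptions.

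The library with the most Edn3, exercised heterozygote 4, also had the highest summed macrophage markers of the 30 libraries, 129 CPM, and the highest summed fibroblast markers, 1110 CPM. The other 4 exercised heterozygotes ranged between 16.8 and 33.6 CPM for macrophage and between 197 and 297 CPM for fibroblast markers. The exercised wild type ranged between 11.8 and 55.7 CPM for macrophage and between 147 and 606 CPM for fibroblast markers. Edn3 in those 4 heterozygotes ranged between 6.01 and 9.53 CPM. Exercised heterozygote 4 also ranked 2 of 30 for summed atrial markers, at 1420 CPM, and was the 1 exercised heterozygote with at least 1000 Xist counts. The part of these in its Edn3 level was not tested. The library with the most Ednrb and Ece1, exercised wild type 1, had the highest summed endothelial markers of all 30 libraries, 1900 CPM against 429 to 688 CPM in the other 4 of its group, and the highest mitochondrial share, 46.92%.

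The genes whose levels ran most alike, among 10534 tested genes (log2 CPM averaging 1 or more, provisional symbols left out), differed between the 5. For Edn3 they were Rapgef1 (r = 0.751), Zyx (0.733), St8sia6 (0.724), Mtss1l (0.719) and Ppp1r9b (0.702), over 30 libraries with group means removed. Rapgef1 encodes an exchange factor for Rap GTPases and Zyx the focal adhesion protein zyxin. Without exercised heterozygote 4 those values were 0.723, 0.659, 0.68, 0.642 and 0.657. Ednra ran closest with Piga (0.694), which acts in making the glycosylphosphatidylinositol anchor, and Edn1 with Gtf2ird1 (0.743), a transcription factor gene. Ednrb ran closest with the nuclear receptor gene Pparg (0.914), then Irak2 (0.903), Rasip1 (0.883), Adam15 (0.872) and the endothelial Notch receptor gene Notch4 (0.858). Ece1 ran closest with Dock9 (0.901), an exchange factor for Cdc42, then Tnks1bp1 (0.9), the ETS factor gene Fli1 (0.882), Tmem204 (0.88) and the integrin gene Itga6 (0.877).

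**Figure D4:**
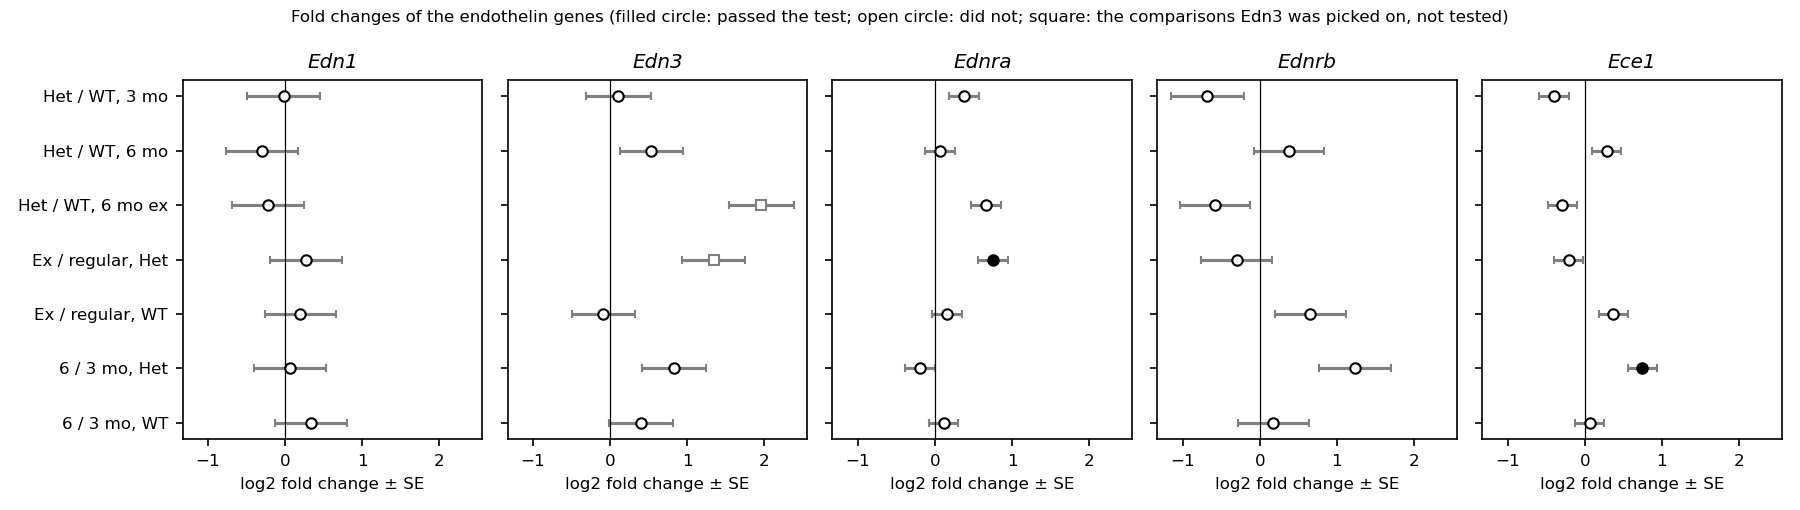
Log2 difference of each endothelin gene in the 7 comparisons of 2 groups, with 1 SE as a bar and filled circles for values that passed the edgeR test. Ednra with exercise in heterozygotes (0.76) and Ece1 with age in heterozygotes (0.75) passed, and squares mark Edn3 in both comparisons with exercised heterozygotes, which are not tested because it was chosen for that pattern.

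Between the genotypes no endothelin gene passed edgeR's test, with Edn3 left aside in exercised mice because it was chosen for that pattern. At 3 months it was 0 of 5, where 0.192% of all genes passed, and 0 by DESeq2 or limma-voom. There 1 of 5 was at an unadjusted p under 0.05, beside 1722 of all 15587 genes. At 6 months with regular activity it was 0 of 5, where 0.135% of all genes passed, and 0 by either other tool. There 0 of 5 were at an unadjusted p under 0.05, beside 8.79% of all genes. In exercised mice it was 0 of 4 beside Edn3, where 0.404% of all genes passed, with 0 by DESeq2 and 1, Ednra, by limma-voom. There 1 of 4 was at an unadjusted p under 0.05, beside 9.78% of all genes.

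Exercise in wild type gave 0 of 5 endothelin genes by edgeR, where 9.69% of all genes passed, and 0 by DESeq2 or limma-voom. At an unadjusted p under 0.05 were 0 of 5, beside 22.8% of all genes. Age in wild type gave 0 of 5 as well, where 0.86% passed, and 0 by either other tool. Again 0 of 5 were at an unadjusted p under 0.05, beside 12.2% of all genes. For the interaction of genotype and exercise 0 of 4 passed by edgeR, where 0.0128% of all genes did. Ednra and Ece1, 2 of 4, were at an unadjusted p under 0.05, as were 4.91% of all genes. For the interaction of genotype and age 0 of 5 passed, where 0% of all genes did, with 1 of 5, Ece1, at an unadjusted p under 0.05 (of all genes, 1253 were at an unadjusted p under 0.05, 23 were called by DESeq2 and 0 by limma-voom). DESeq2 and limma-voom called 0 in both interactions.

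Of 9 further genes that process endothelins or make a related product, 4 had enough reads to be tested: Ece2, Mme, Furin and Pcsk7. Ece2, a second converting enzyme, fell with exercise in heterozygotes to 3.76 ± 0.631 CPM, against 6.44 ± 0.858 CPM with regular activity (SD, n = 5 each), with no overlap. Its log2 difference was -0.77 (SE 0.233, edgeR adjusted p = 0.0318). It lost the call in 5 of the 10 fits that left out 1 library, with an adjusted p of up to 0.0723. This was 1 of the 4 tested genes, where 8.82% of all genes passed. In exercised wild type Ece2 averaged 4.79 ± 1.14 CPM, against 6.38 ± 1.43 CPM with regular activity (log2 -0.41, SE 0.229, edgeR adjusted p = 0.297). The difference between its exercise responses was -0.36 (SE 0.326, edgeR adjusted p = 0.999), so the genotypes were not shown to differ. Mme, the gene of neprilysin, which degrades endothelin and natriuretic peptides, averaged 11 ± 4.13 CPM in exercised heterozygotes and 15.5 ± 4.14 CPM in exercised wild type, with a log2 difference of -0.50 (SE 0.223, edgeR adjusted p = 0.443). With regular activity at 6 months Mme averaged 8.78 ± 2.08 CPM in heterozygotes and 12.9 ± 2.79 CPM in wild type, with a log2 difference of -0.56 (SE 0.222, edgeR adjusted p = 0.434). Furin and Pcsk7, proteases of the secretory pathway, passed in no comparison.

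Downstream of the receptors, 26 of 29 genes of G proteins, phospholipase C, protein kinase C, inositol trisphosphate receptors, receptor kinases, arrestins and RGS regulators were tested. With exercise in heterozygotes 4 rose and 1 fell by edgeR, with a median log2 difference of -0.17 over the 26, against 0 for all genes, of which 8.82% passed. Those that rose included Prkce (log2 0.66, adjusted p = 0.000695) and Prkca (0.62, adjusted p = 0.00338), both protein kinase C genes, and the RhoA exchange factor gene Arhgef12 (0.30, adjusted p = 0.0481). Gna11, which encodes a G protein alpha subunit of the Gq class, fell by 0.31 (edgeR adjusted p = 0.0305). Prkce and Prkca kept the call in every alternative and with each library left out, and the other 3 did not.

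Exercise in wild type also gave 4 higher and 1 lower gene of the 26, with a median log2 difference of 0.07, against 0.01 for all genes, of which 9.69% passed. Plcb4, a phospholipase C gene, rose by 0.73 on the log2 scale (edgeR adjusted p = 0.00304), and it alone of the 5 kept the call in every alternative. Prkca rose by 0.49 (adjusted p = 0.0181), the Gq gene Gnaq by 0.46 (adjusted p = 0.0388) and Arhgef12 by 0.36 (adjusted p = 0.0175), and Gna12 fell by 0.46 (adjusted p = 0.0237, all by edgeR). Prkce averaged 32.0 ± 3.77 CPM in exercised heterozygotes against 20.3 ± 1.7 CPM with regular activity, and 30.5 ± 2.31 CPM in exercised wild type against 25.7 ± 2.76 CPM. The difference between its responses was 0.41 on the log2 scale (SE 0.173, edgeR adjusted p = 0.969).

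With age in heterozygotes 3 of the 26 rose and 1 fell by edgeR, with a median log2 difference of 0.24, against -0.02 for all genes, of which 3.43% passed. Rgs5, a pericyte regulator of G protein signalling that is also on the pericyte marker list, rose by 1.29 (adjusted p = 0.0273), the phospholipase C gene Plcb1 by 1.22 (adjusted p = 0.0165) and the ERK1 gene Mapk3 by 0.76 (adjusted p = 0.0151). Prkce fell by 0.43 (edgeR adjusted p = 0.0455). Of 9 tested pericyte and smooth muscle markers, Rgs5 among them, 8 were higher at 6 months with a median log2 difference of 0.86, and their summed mean was 757 CPM at 6 months and 502 CPM at 3 months, and their part in these values was not tested. None of the 4 kept the call in every alternative, and for the 3 that rose the highest adjusted p with a library left out, between 0.077 and 0.113, came without heterozygote 3 at 6 months. Between the genotypes 0 of 26 passed by edgeR in each of the 3 comparisons, with 4 to 6 at an unadjusted p under 0.05. DESeq2 called 0 to 3 of the 26 and limma-voom 0 to 3. In these genotype comparisons 1370 to 1722 of all 15587 genes were at an unadjusted p under 0.05. The edgeR test called 21 to 63 of all genes there, DESeq2 56 to 200 and limma-voom 18 to 476. Both interactions gave 0 of 26 by edgeR, with 4 at an unadjusted p under 0.05 in each and 0 by DESeq2 or limma-voom. Of all genes, 0.0128% passed by edgeR for the exercise interaction and 0% for the age interaction. At an unadjusted p under 0.05 were 4.91% and 8.04% of all genes. The smallest adjusted p between genotypes belonged to Gnai2 in exercised mice, with a log2 difference of 0.42 (SE 0.101, edgeR adjusted p = 0.0522).

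**Figure D5:**
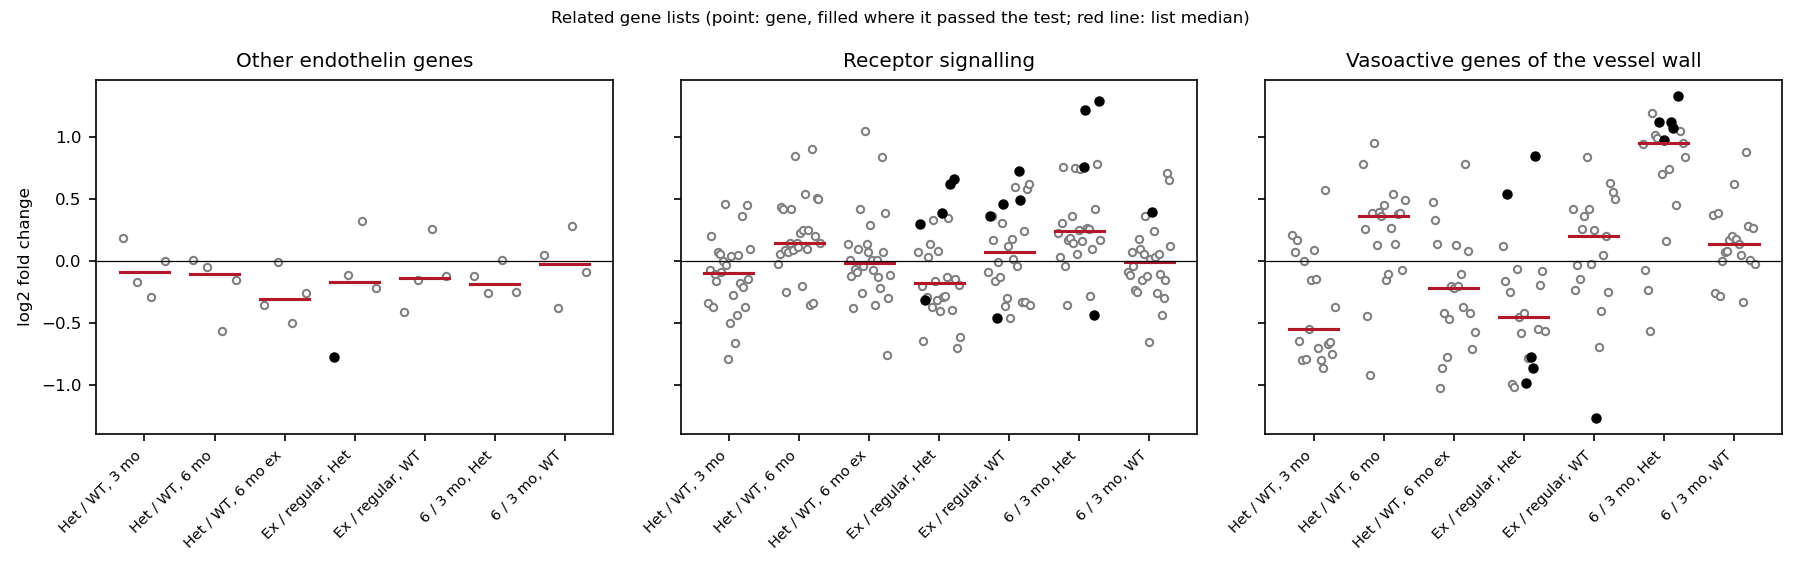
Log2 differences of the genes in the 3 pathway lists in the 7 comparisons of 2 groups, with 1 point per tested gene, the median as a red line and filled points for genes that passed the edgeR test. For the vessel wall genes in heterozygotes the median is -0.45 with exercise and 0.95 with age.

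The other vasoactive genes of the vessel wall, among them nitric oxide synthase, natriuretic peptide receptors and adrenomedullin receptor genes, were tested for 19 of 20. With age in heterozygotes 5 rose and 0 fell, with a median log2 difference of 0.95, against -0.02 for all genes, of which 3.43% passed. They were Nos3, the endothelial nitric oxide synthase gene (1.12, edgeR adjusted p = 0.00388), Npr1, a receptor for atrial natriuretic peptide (1.07, adjusted p = 0.0107), Ptgis, the prostacyclin synthase gene (1.33, adjusted p = 0.0492), Cav1, the caveolin-1 gene (1.12, adjusted p = 0.0391), and Gucy1b3, a subunit of the nitric oxide receptor (0.98, adjusted p = 0.0405). Nos3 averaged 24.6 ± 6.76 CPM at 6 months and 11.3 ± 2.28 CPM at 3 months in heterozygotes, and it alone of the 5 kept the call in every alternative. These genes moved with Ece1 and with the endothelial markers given above, and the part of the markers was not tested.

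With exercise in heterozygotes 2 of the 19 rose and 3 fell by edgeR, with a median log2 difference of -0.45, against 0 for all genes, of which 8.82% passed. Nos3 fell to 14.4 ± 2.62 CPM, against 24.6 ± 6.76 CPM with regular activity (log2 -0.77, adjusted p = 0.0269), Npr1 fell by 0.86 (adjusted p = 0.0206) and Klf2, a flow-responsive endothelial transcription factor gene, by 0.98 (adjusted p = 0.0251). Npr3, the natriuretic peptide clearance receptor gene, rose by 0.85 (edgeR adjusted p = 0.0347) and Agtr1a, an angiotensin II receptor gene, by 0.54 (edgeR adjusted p = 0.0335). None of the 5 kept the call in every alternative. Summed endothelial markers ranged between 347 and 763 CPM in exercised heterozygotes and between 608 and 1240 CPM with regular activity, and the part of this in the lower values was not tested.

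In wild type, exercise gave 1 of the 19, Klf2, which fell by 1.26 on the log2 scale (edgeR adjusted p = 0.00427) and kept the call in every alternative, where 9.69% of all genes passed. Klf2 averaged 18.2 ± 7.56 CPM in exercised wild type and 43.3 ± 13.9 CPM with regular activity, beside 19.8 ± 5.05 CPM in exercised heterozygotes against 38.9 ± 10.9 CPM. The difference between its exercise responses in both genotypes was 0.28 on the log2 scale (SE 0.386, edgeR adjusted p = 0.999). Between the genotypes 0 of 19 passed by edgeR in each of the 3 comparisons, with 3 to 5 at an unadjusted p under 0.05. DESeq2 called 0 of the 19 and limma-voom 0 to 2. Beside these, 1370 to 1722 of all 15587 genes were at an unadjusted p under 0.05. Calls over all genes between the genotypes were 21 to 63 by edgeR, 56 to 200 by DESeq2 and 18 to 476 by limma-voom. Age in wild type gave 0 of 19 by edgeR, with 3 at an unadjusted p under 0.05 and 0 by DESeq2 or limma-voom. Of all genes, 0.86% passed by edgeR there and 12.2% were at an unadjusted p under 0.05. The exercise and the age interaction with genotype also gave 0 of 19 by edgeR, with 5 and 6 at an unadjusted p under 0.05. DESeq2 called 0 and 1, and limma-voom 0. Of all genes, 0.0128% and 0% passed by edgeR, and 4.91% and 8.04% were at an unadjusted p under 0.05.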

How the data were processed

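Total RNA of cardiac myocytes was sequenced from ribosome-depleted, stranded TruSeq v2 libraries, per the labels' protocols. Trim Galore, HISAT2, featureCounts and build mm10 were used, per the submitters' processing notes; versions, annotation release, strand setting and filters are not given in the sources used here. The authors deposited raw counts in 1 table of 30 libraries, with 52573 entries, of which 23 spike-in controls were left out. Positions came from GENCODE M21 on GRCm38, which held 52403 of the gene IDs.

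After filterByExpr with the 6 groups and TMM scaling, all 30 libraries entered 1 robust fit with 24 residual degrees of freedom, tested by quasi-likelihood F in edgeR 4.0.16 (with limma 3.58.1 under R 4.3.3). P-values were adjusted by Benjamini-Hochberg over 15587 genes, and called at 0.05. Log2 CPM used a prior count of 2, and SE is the log2 difference divided by the square root of F. The 9 comparisons were genotype (3), exercise and age within each genotype, and both interactions. The comparisons of 1 genotype or age share libraries.

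The members, the 3 pathway lists and the 10 marker lists were chosen with earlier results of these data known. Named were the 5 members, Dsp, list genes called anywhere or with the 3 smallest p in a genotype comparison, and the 5 genes most like each member; 1 gene that the rule takes is not reported here. Of 58 pathway and 88 marker symbols, 56 and 88 matched the table. Alternatives were DESeq2 size factors, DESeq2 1.42.0, limma-voom, no filter, a replicate block, an Xist covariate, other gene and library subsets, and each library left out.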

Additional observations from a re-analysis of the deposited data

Results flagged for a closer look

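In 3 of 29 sets of 5 libraries (5 genes in 6 groups, without Edn3 in exercised heterozygotes) 1 library stood apart from the other 4. The gap was of a size that normally spread values give in about 1 in 20 sets. CPM need not be spread normally, and genes of 1 library are not independent, so the count was not compared with that rate. Ednrb in exercised wild type 1 was 38.1 CPM, with the next at 12.7 CPM, and Ece1 in the same library was 99.4 CPM, with the next at 53.2 CPM. Ece1 in heterozygote 3 at 6 months with regular activity was 83.1 CPM, with the next at 53.4 CPM. Edn3 in exercised heterozygote 4 was 26.2 CPM, with the next library at 9.53 CPM, and this gap is a description, as Edn3 was chosen for its level in that group. Exercised wild type 1 and heterozygote 3 at 6 months ranked 1 and 2 of 30 for summed endothelial markers, at 1900 and 1240 CPM, and exercised heterozygote 4 ranked 6 at 763 CPM.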

How the results depend on the processing

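Edn3 aside in exercised heterozygotes, the count of endothelin genes that passed was the same as reported in the other comparisons and alternatives. For exercise in heterozygotes the 1 gene, Ednra, became 0 without the filter on low counts and at a threshold of 0.01, and the count was 0 to 1 with 1 library left out. For age in heterozygotes the 1 gene, Ece1, became 0 at the threshold of 0.01 and 2 by limma-voom, which added Ednrb, and the count was 0 to 1 with 1 library left out. For genotype in exercised mice limma-voom gave 1, Ednra, against 0. No value that passed changed sign under an alternative. Replicate numbers did not pair the libraries (r of same-numbered libraries between -0.252 and 0.154, with 0 to 3 of 5 libraries closest to their own number). With a replicate block the adjusted p was 0.0236 for Ednra with exercise in heterozygotes, 0.0331 for Ece1 with age in heterozygotes and 0.0539 for Dsp between exercised genotypes, and the counts of endothelin genes were unchanged.

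The number of all genes called moved more. With a library left out it was 1 to 74 for genotype at 3 months (30 reported), 6 to 19 at 6 months (21), 25 to 89 in exercised mice (63), 897 to 1423 for exercise in heterozygotes (1375) and 181 to 668 for age in heterozygotes (534). Over the other alternatives it was 0 to 145, 4 to 476, 13 to 200, 816 to 2835 and 341 to 1367. The ligands rested on 10 to 443 counts per library, and the part of depth in their SE was not tested. With an Xist covariate, chosen after seeing the data, the adjusted p was 0.0053 for Ednra with exercise in heterozygotes and 0.0322 for Ece1 with age in heterozygotes.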
